A study of Mus musculus with 16 samples.

Results

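Emp1, Gask1b, Akap2, Uck2, Ano10 and Inmt are 6 genes, out of 18193 named on the arrays, that were put together because their signal changed with pressure load in hearts lacking PPARalpha. Every probe set assigned to exactly 1 of these symbols was taken, which gave 14 of 45037 non-control probe sets: 6 for Uck2, 2 each for Emp1, Gask1b and Akap2, and 1 each for Ano10 and Inmt. The study measured RNA of the left ventricle on Affymetrix mouse arrays and asked how the loss of PPARalpha alters cardiac expression at rest and under lasting load. There were 4 groups of 4 arrays, all taken at 28 days. WT sham was wild-type mice after a sham operation, and WT TAC was wild-type mice after transverse aortic constriction (TAC), in which a tie around the aorta raises the pressure that the left ventricle pumps against. KO sham and KO TAC were PPARalpha-/- mice after the same 2 operations. The strain, sex and age of the mice, the way the knockout was made, and whether replicates were separate animals are not given in the labels, so a p-value here reflects spread among the arrays, which could be technical.

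PPARalpha is a nuclear receptor that binds lipid ligands and activates genes of fatty acid uptake and oxidation, the main fuel route of the adult heart. The 6 genes belong to no common pathway. Emp1 encodes epithelial membrane protein 1, a small protein of the EMP and PMP22 family that spans the membrane several times. Gask1b encodes a Golgi-associated protein related to the kinases of the secretory pathway. Akap2 encodes an A-kinase anchoring protein, a scaffold that holds protein kinase A at particular places in the cell. Uck2 encodes uridine-cytidine kinase 2, which adds the first phosphate to uridine and cytidine in pyrimidine salvage, the recycling route to RNA building blocks. Ano10 encodes anoctamin 10, a member of a family of membrane proteins that includes chloride channels and lipid scramblases. Inmt encodes indolethylamine N-methyltransferase, which transfers methyl groups from S-adenosylmethionine to tryptamine and related small amines.

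The members were chosen on the response to TAC in KO and in WT. Those 2 comparisons, their difference, and the single-operation genotype comparisons that reuse the same arrays are therefore descriptions for the members and support nothing. Calls of the fit in them are counted only to check the label under which the genes were gathered and to set the members beside all probe sets. In these descriptions a gene is said to be higher or lower, and the groups overlap unless every array of 1 group lies beyond every array of the other. The label under which the genes were gathered, load-responsive only in the knockout, was set against the test of the difference itself. Limma called 0 of 27022 tested probe sets (0%) for a TAC response that differed between genotypes, at a Benjamini-Hochberg adjusted p under 0.05. Of these probe sets, 2354 had an unadjusted p under 0.05, and limma with a trend and robust variance model called 18. The adjusted p-values of the 12 tested member probe sets lay between 0.319 and 0.857 in that test. No probe set of the series had an adjusted p below 0.319, and 9 of the 12 had an unadjusted p under 0.05. With 4 arrays per group, the lack of calls does not show that the responses were equal. The 18 included 1 probe set each of Emp1, Akap2, Uck2 and Ano10, which is no independent evidence, since the choice of the genes used this difference. The 2 genes that were lower after TAC in KO, Ano10 and Inmt, were also lower after TAC in WT with no overlap of arrays. The 6 genes are therefore called here by name, and not as specific to the knockout.

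The 250 bases before the annotated start were taken for the 5 genes matched in the RefSeq promoter table of GRCm38.p6, so that the starts of genes that were high and low in KO TAC can be compared. Capitals mark matches to 7 motifs searched on both strands: AP-1 (TGANTCA), the GC box (GGGCGG), the TATA box (TATAAA), the nuclear receptor motif AGGTCA, its direct repeat with 1 base between the copies (DR1, AGGTCANAGGTCA), which PPARalpha can bind, MCAT (CATTCC) and the GATA factor motif (AGATAA). DR1 contains AGGTCA, so a DR1 match would also count as AGGTCA matches.
Emp1, chr6:135362681-135362930, plus strand: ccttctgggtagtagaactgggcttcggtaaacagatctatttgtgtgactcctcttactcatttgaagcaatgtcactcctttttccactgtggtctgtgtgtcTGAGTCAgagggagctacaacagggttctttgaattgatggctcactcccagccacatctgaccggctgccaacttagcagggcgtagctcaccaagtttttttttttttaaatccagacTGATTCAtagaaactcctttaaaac
Gask1b, chr3:79885680-79885929, plus strand: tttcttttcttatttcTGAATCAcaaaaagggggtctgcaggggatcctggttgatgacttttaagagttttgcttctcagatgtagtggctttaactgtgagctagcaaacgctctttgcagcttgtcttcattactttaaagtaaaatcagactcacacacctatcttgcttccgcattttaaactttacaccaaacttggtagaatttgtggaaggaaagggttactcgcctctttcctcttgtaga
Uck2, chr1:167285128-167285377, minus strand: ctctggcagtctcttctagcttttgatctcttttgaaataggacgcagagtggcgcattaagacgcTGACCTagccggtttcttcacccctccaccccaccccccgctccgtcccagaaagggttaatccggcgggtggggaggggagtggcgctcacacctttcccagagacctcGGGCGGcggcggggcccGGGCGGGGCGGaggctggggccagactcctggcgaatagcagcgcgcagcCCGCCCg
Ano10, chr9:122294424-122294673, minus strand: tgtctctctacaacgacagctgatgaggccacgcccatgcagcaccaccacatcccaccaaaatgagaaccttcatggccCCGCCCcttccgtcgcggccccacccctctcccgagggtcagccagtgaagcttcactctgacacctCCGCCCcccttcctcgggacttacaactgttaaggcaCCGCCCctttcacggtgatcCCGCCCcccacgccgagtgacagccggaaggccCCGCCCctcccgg
Inmt, chr6:55174991-55175240, minus strand: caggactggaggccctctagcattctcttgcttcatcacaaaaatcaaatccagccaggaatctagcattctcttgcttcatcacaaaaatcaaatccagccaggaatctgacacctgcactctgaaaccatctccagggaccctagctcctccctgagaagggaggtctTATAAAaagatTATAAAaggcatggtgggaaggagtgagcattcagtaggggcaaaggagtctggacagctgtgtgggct
The Emp1 window held 2 AP-1 matches, at 145 to 139 and 25 to 19 bases before the start, and the Gask1b window held 1, at 234 to 228 bases. AP-1 matched in 6.75% of 32851 promoter windows of this length. The second annotated start of Emp1 held no match to any of the 7 motifs. GC boxes stood only in the windows of Uck2 (4 matches, of which a neighbouring pair shares 1 base) and Ano10 (5 matches), which had a G and C content of 66.0% and 65.2% against a median of 52.4% over all windows. The GC box matched in 32.7% of all windows. The Inmt window held 2 TATA boxes, at 80 to 75 and 69 to 64 bases before the start, a motif matched in 12.4% of windows. AGGTCA matched once, in Uck2 at 184 to 179 bases, and in 14.0% of all windows. DR1, MCAT and GATA matched in none of the 6 windows, against 0.0335%, 12.6% and 9.99% of all windows. A match is a description of letters in the window and says nothing about binding.

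Ppara itself was the check of the genotype labels. The deposited signals had been scaled to a common mean, and array medians lay between 108.3 and 163. Ppara was lower in KO over both operations with log2 differences of -1.31 ± 0.14, -2.75 ± 0.17 and -1.81 ± 0.13 (SE, n = 8 arrays per genotype) on its 3 probe sets, with limma adjusted p-values of 0.000114, 4.84e-07 and 1.37e-06, and every KO array lay below every WT array. Ventricular muscle markers were bright on every array, with Myl2 between 63088.8 and 140525.5 and Myh6 between 62768.2 and 109169.4. Of 3 arrays that stood apart, replicate 3 of WT TAC had the lowest mean correlation with its group, 0.895. The hybridisation spike-ins, controls added in equal amounts, were dimmest in KO TAC replicates 2 and 3 (mean log2 signal of 12.13 or less) and brightest in WT TAC replicate 3 (13.04). Values are given with all arrays, and those printed for the members that move by over 1.5 times without these 3 are given both ways.

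Emp1, the tetraspan membrane protein gene, was higher in KO TAC than in KO sham on its bright probe set. The signal of 1416529_at in KO sham was 827.2, 872.9, 535.2 and 1024.4 in replicates 1 to 4, and in KO TAC it was 2220.0, 3120.4, 2380.5 and 2474.9. The lowest KO TAC array stood above the highest of the other 12 arrays. In WT sham the signals were 1142.5, 965.0, 1051.9 and 922.6, and in WT TAC they were 1617.6, 1463.9, 1101.5 and 1159.0. WT TAC replicates 1, 2 and 4 lay above all WT sham arrays, while replicate 3 lay within their range. The log2 difference between TAC and sham was 1.67 ± 0.19 in KO, or 3.19-fold, and 0.37 ± 0.19 in WT, or 1.30-fold (moderated SE, n = 4 per group). KO and WT differed by -0.36 ± 0.19 in sham, with overlap, and by 0.94 ± 0.19 after TAC, without overlap. The other Emp1 probe set, 1459171_at, was dim, with signals between 6.9 and 186.4 over all arrays, and did not pass the filter on low signal.

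Gask1b, the Golgi-associated protein gene, was likewise highest in KO TAC. Its bright probe set 1416805_at read 3261.0, 3117.9, 3361.0 and 2839.2 in KO TAC and 1405.1, 1540.5, 1256.2 and 1019.4 in KO sham. In WT it read 1282.0, 1223.4, 1436.5 and 1120.9 after sham and 1881.3, 1676.8, 1388.7 and 1418.8 after TAC. The KO TAC arrays lay above the other 12 arrays, and the WT TAC and WT sham arrays overlapped. TAC and sham differed by 1.28 ± 0.15 in KO, or 2.43-fold, and by 0.32 ± 0.15 in WT, or 1.25-fold. The genotypes differed by 0.03 ± 0.15 in sham and by 0.99 ± 0.15 after TAC, or 1.99-fold.

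The dimmer Gask1b probe set, 1429637_at, followed the same order in KO, with signals of 491.5 to 597.6 (n = 4) in KO TAC and 140.7 to 352.0 in KO sham. In WT it read 138.9 to 371.0 after TAC and 192.1 to 306.6 after sham. The log2 difference between TAC and sham was 1.33 ± 0.34 in KO and -0.04 ± 0.34 in WT, or 0.22 in WT without the 3 arrays that stood apart. KO sham replicates 3 and 4 and WT TAC replicates 3 and 4 were its low arrays.

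Akap2, the protein kinase A scaffold, was read by 2 probe sets that differed from each other. On the bright probe set 1455870_at, KO TAC read 4468.7, 6695.5, 6915.1 and 6333.5, and KO sham read 3703.5, 3104.8, 3537.1 and 3800.4. WT TAC read 3685.3, 3374.5, 3401.7 and 3793.9, and WT sham read 4444.3, 4073.3, 3668.5 and 4853.2. KO TAC lay above KO sham without overlap, although its replicate 1 fell inside the WT sham range, and in WT the TAC arrays were mostly the lower ones. TAC and sham differed by 0.77 ± 0.14 in KO, or 1.71-fold, and by -0.25 ± 0.14 in WT. The 2 brightest KO TAC arrays were replicates 2 and 3, which also had the dimmest spike-ins. Without them and WT TAC replicate 3 the difference in KO was 0.59 ± 0.17, and their part in the result was not tested.

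On the second Akap2 probe set, 1449168_a_at, which reads transcripts of the same gene, the groups overlapped throughout. Its signals were 459.8 to 925.3 in KO TAC, 405.6 to 755.7 in KO sham, 411.3 to 778.3 in WT TAC and 523.0 to 687.3 in WT sham (n = 4 each). TAC and sham differed by 0.16 ± 0.26 in KO and by -0.12 ± 0.26 in WT. Without the 3 arrays that stood apart these differences were 0.55 ± 0.25 and -0.28 ± 0.22. Palm2, the gene beside Akap2 with which it can be transcribed together, was tested on 1 probe set and differed by -0.49 ± 0.28 in KO (limma adjusted p = 0.525) and by 0.24 ± 0.28 in WT (0.913).

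**Figure D1:**
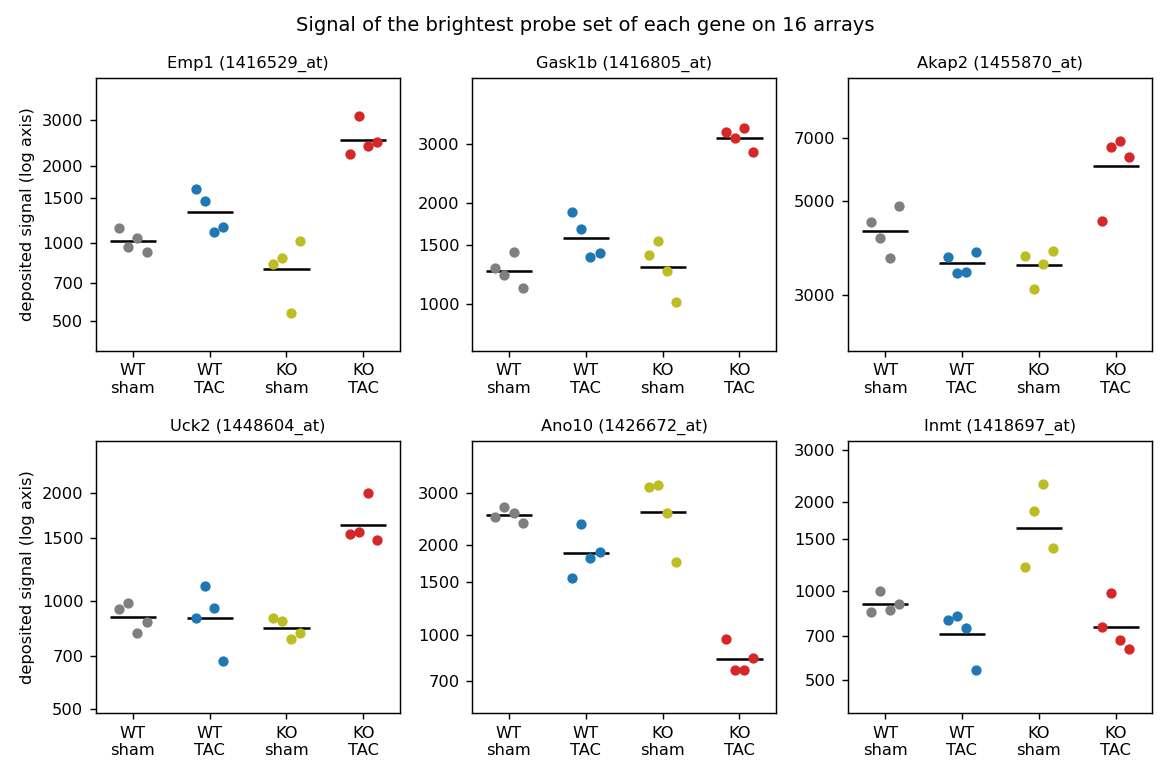
Deposited signal on a log axis for the brightest probe set of each of the 6 genes, with 1 point per array, 4 arrays in each of 4 groups, and a bar at the geometric mean of the group. KO TAC arrays stand above KO sham arrays for Emp1, Gask1b, Akap2 and Uck2 and below them for Ano10 and Inmt, and the Inmt points of KO sham stand above those of the other 3 groups.

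Uck2, the pyrimidine salvage kinase, was read by 6 probe sets, more than any other member. The brightest, 1448604_at, read 1543.0, 1559.4, 1999.2 and 1483.7 in KO TAC and 894.2, 875.9, 783.4 and 815.0 in KO sham. WT sham read 949.1, 985.9, 813.0 and 873.8, and WT TAC read 897.2, 1103.0, 956.6 and 678.3. KO TAC stood alone, and the other 3 groups shared 1 range. The log2 difference between TAC and sham was 0.96 ± 0.15 in KO, or 1.94-fold, and -0.01 ± 0.15 in WT, or -0.04 in WT without the 3 arrays that stood apart.

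The probe set 1439740_s_at, whose suffix marks probes that can be shared by several transcripts, gave the widest separation for Uck2. It read 1403.1, 1551.7, 1544.1 and 1329.0 in KO TAC, 461.9, 457.8, 516.8 and 571.0 in KO sham, 946.2, 576.3, 822.9 and 481.7 in WT TAC and 598.4, 576.6, 781.0 and 610.4 in WT sham. KO sham lay below WT sham and KO TAC above every other array. TAC and sham differed by 1.54 ± 0.19 in KO, or 2.91-fold, and by 0.10 ± 0.19 in WT, and the genotypes by -0.35 ± 0.19 in sham and 1.09 ± 0.19 after TAC. On 1426909_at, KO TAC spread from 515.1 to 1040.4 above a KO sham range of 233.1 to 431.8, and the difference was 1.38 ± 0.29 in KO and 0.18 ± 0.29 in WT. Without the 3 arrays that stood apart the differences in WT were 0.01 on 1439740_s_at and 0.40 on 1426909_at.

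The 2 Uck2 probe sets with the suffix _x_at, whose probes may bind other transcripts, behaved differently. On 1439741_x_at, KO TAC (393.9 to 551.3) overlapped KO sham (196.3 to 406.1), with a difference of 0.71 ± 0.28. On 1457980_x_at, KO TAC (176.2 to 366.5) overlapped KO sham by 1 array, with a difference of 1.03 ± 0.29 in KO and 0.37 ± 0.29 in WT, or 0.18 in WT without the 3 arrays. On this probe set KO sham (98.1 to 179.8) lay below WT sham (212.2 to 250.7), and KO TAC overlapped WT TAC (173.9 to 450.0). The last, 1417137_at, was dim on all arrays, at 9.1 to 182.4, and did not pass the filter. All 5 tested Uck2 probe sets were higher in KO TAC than in KO sham, by 0.71 to 1.54, of which 3 did so with no overlap.

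**Figure D2:**
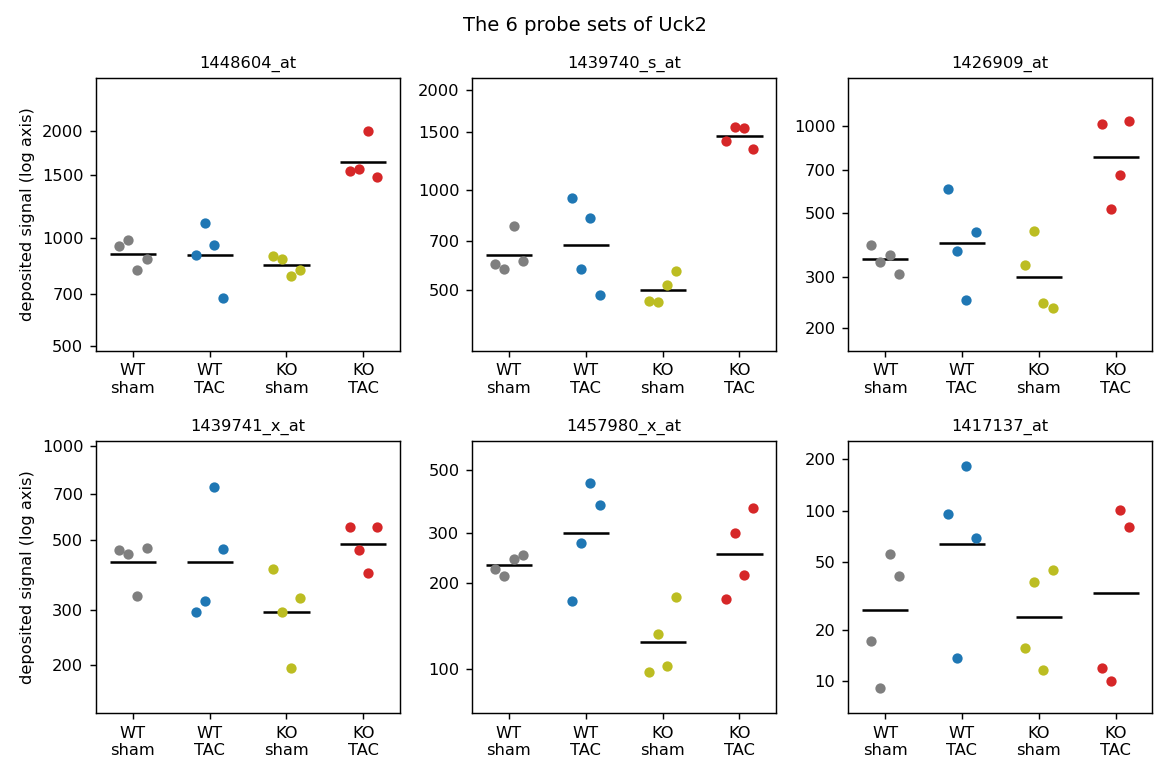
Deposited signal on a log axis for each of the 6 Uck2 probe sets, with 1 point per array, 4 arrays per group, and a bar at the geometric mean of the group. KO TAC stands apart from KO sham on 1448604_at, 1439740_s_at and 1426909_at, overlaps it on the 2 probe sets ending in _x_at, and 1417137_at scatters near the floor.

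Ano10, the anoctamin gene, was lowest in KO TAC. Its single probe set, 1426672_at, read 967.2, 762.0, 763.3 and 837.5 in KO TAC and 3138.5, 3189.7, 2558.3 and 1750.0 in KO sham. In WT it read 2478.0, 2691.8, 2565.5 and 2380.5 after sham and 1552.5, 2360.8, 1812.6 and 1894.4 after TAC. All KO TAC arrays lay below the other 12, KO sham was the most scattered group, and the WT TAC arrays lay below the WT sham arrays by a narrow margin. TAC and sham differed by -1.64 ± 0.18 in KO, or 3.12-fold lower, and by -0.42 ± 0.18 in WT, or 1.34-fold lower. The genotypes differed by 0.03 ± 0.18 in sham, with overlap, and after TAC KO was lower by 2.27-fold, at -1.18 ± 0.18.

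Inmt, the methyltransferase gene, was highest in KO sham. Its probe set 1418697_at read 1203.2, 1863.6, 2297.2 and 1396.3 in KO sham, against 846.2, 1000.6, 860.1 and 904.0 in WT sham. After TAC it read 754.4, 979.1, 680.0 and 635.1 in KO and 794.2, 821.7, 745.3 and 537.2 in WT. KO sham stood above the other 12 arrays, and after TAC the genotypes overlapped. KO exceeded WT by 0.86 ± 0.21 in sham, or 1.82-fold, and differed from it by 0.07 ± 0.21 after TAC, or -0.03 without the 3 arrays that stood apart. The difference between TAC and sham was -1.12 ± 0.21 in KO, or 2.18-fold lower, and -0.33 ± 0.21 in WT, or 1.26-fold lower. The KO sham group also held the array with the highest summed signal of the atrial genes Myl7, Myl4 and Sln, 26325.3 in replicate 4. That sum was 253.6 to 8128.7 in the WT arrays and 752.6 to 5231.3 in KO TAC. Inmt was not highest on KO sham replicate 4, and Ano10 was at its KO sham minimum there. With Nppa and Stard10, the other genes of the atrial marker list, the sum was 58848 to 72017 in KO TAC. It was 29381 to 56821 in KO sham, 35361 to 50245 in WT TAC and 17120 to 29710 in WT sham. Between KO TAC and KO sham, Nppa differed by 1.24 ± 0.16 (limma adjusted p = 0.00244) and Stard10 by -0.50 ± 0.14 (0.123). The part of atrial tissue in these values was not tested.

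**Figure D3:**
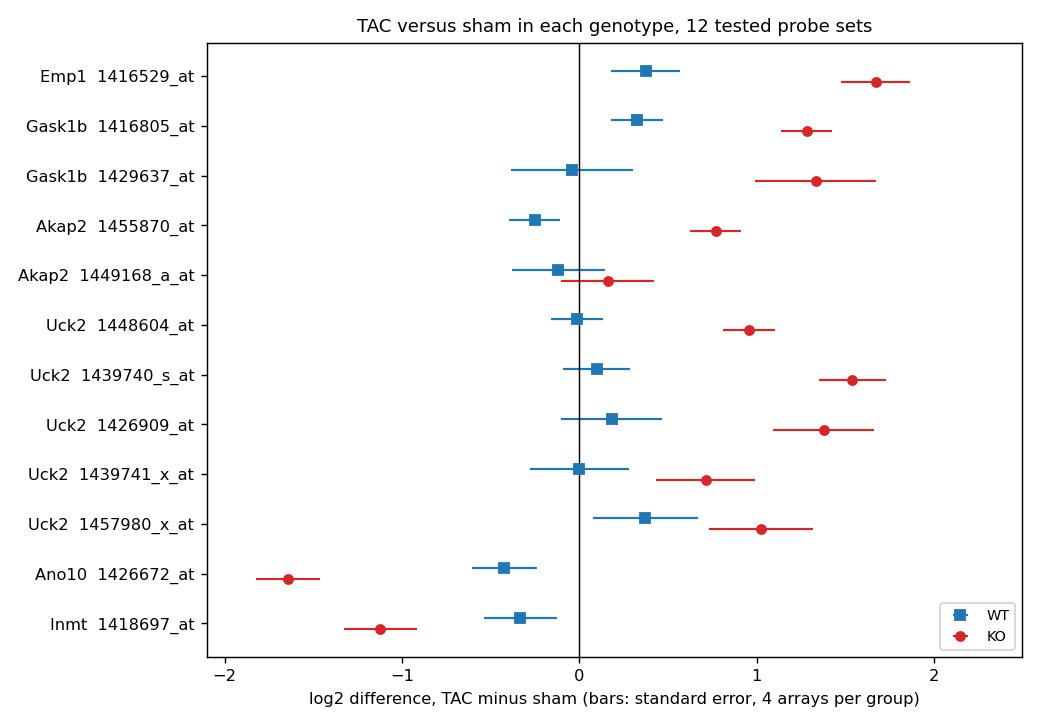
Log2 difference between TAC and sham for each of the 12 member probe sets that passed the filter, in KO and in WT, with bars of 1 moderated SE (4 arrays per group). The KO values run from -1.64 for Ano10 to 1.67 for Emp1, and the WT values from -0.42 for Ano10 to 0.37 for Emp1.

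By the comparison that chose them, 8 of the 12 tested member probe sets passed between KO TAC and KO sham (6 of them higher and 2 lower), where 0.729% of all 27022 probe sets were called (0.488% higher and 0.241% lower). The 4 that were not called were 1429637_at of Gask1b, 1449168_a_at of Akap2 and the 2 _x_at probe sets of Uck2. Arrays did not overlap for 9 of the 12, with 8.46% of all probe sets: 7 lay higher, with 4.1% of all, and 2 lower, with 4.36%. These counts restate the choice of the genes. The call was lost for Akap2 1455870_at, Inmt and the Uck2 probe sets 1448604_at and 1439740_s_at without the 3 arrays that stood apart, which left 4 called. With spike-in brightness added to the fit 4 were called, and 5 without KO sham replicate 3, KO TAC replicate 3 or KO TAC replicate 4. Over the alternatives run, the call was made in 11 of 28 for Uck2 1426909_at, 27 of 28 for Uck2 1439740_s_at, 26 of 29 for Uck2 1448604_at, 18 of 29 for Akap2 1455870_at, 20 of 29 for Inmt, and 29 of 29 for Emp1 1416529_at, Gask1b 1416805_at and Ano10. All of these come from the arrays that chose the genes and are no further support for them.

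In WT, 0 of the 12 member probe sets were called between TAC and sham, where limma called 0 of 27022 (0%). Of all probe sets, 1808 had an unadjusted p under 0.05, 2 of them members, and the trend and robust model called 1 probe set. Arrays of WT TAC and WT sham did not overlap for 2 members, Ano10 and Inmt, both lower. Of all probe sets 3.99% did not overlap, 2.39% higher and 1.59% lower. The median difference of the 12 member probe sets was -0.006 in WT, beside 0.003 over all probe sets tested, and 0.992 in KO, beside -0.018. These medians restate the choice of the genes, count Uck2 more often than the others, and mix genes of both directions. The WT values ran from -0.42 for Ano10 to 0.37 for Emp1. Emp1, the bright probe set of Gask1b, Ano10 and Inmt had the same sign in both genotypes, with a smaller value in WT, whereas Akap2 1455870_at had the opposite sign in WT. These signs in WT held under all 29 alternatives, median centring and quantile normalization included. Alternatives that change only the filter or leave out a KO array cannot move a difference in WT. With the spike-in covariate Akap2 1455870_at lay at -0.06 ± 0.15 in WT, so its sign there is not settled. The comparison is one that chose the genes, and its signs support nothing.

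At each operation taken alone, KO and WT arrays did not overlap for 3 of 12 member probe sets in sham (4.98% of all) and for 7 after TAC (7.85% of all). In sham, Inmt was higher in KO, where 2.67% of all probe sets were higher without overlap, and the Uck2 probe sets 1439740_s_at and 1457980_x_at were lower, where 2.31% were. After TAC, 6 were higher in KO, with 3.83% of all probe sets: both of Gask1b, the bright ones of Emp1 and Akap2, and 1448604_at and 1439740_s_at of Uck2. Ano10 was lower in KO after TAC, with 4.02% of all probe sets. Inmt and Uck2 1457980_x_at were thus apart in sham and not after TAC, and 1439740_s_at of Uck2 was apart in both with opposite signs.

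A comparison that the choice did not use is the genotype average: the mean of KO sham and KO TAC against the mean of WT sham and WT TAC. It is independent of both TAC responses in its mean, but it shares their estimate of spread, and a gene that differs with TAC in 1 genotype alone also moves it. Limma called 1.03% of all probe sets (0.381% higher in KO, 0.644% lower) and 1 of the 12 member probe sets. At an unadjusted p under 0.05 there were 8 of the 12, several of which read the same gene, and 2976 of all 27022. Gask1b 1416805_at was higher in KO, by 0.51 ± 0.10 or 1.43-fold, with an adjusted p of 0.0259 (n = 8 arrays per genotype). Its difference lay at 0.03 in sham and at 0.99 after TAC, so the average rested on the TAC arrays. Without the 3 arrays that stood apart the value was 0.46 with an adjusted p of 0.214, and over 28 alternatives the adjusted p ran from 0.00333 to 0.214. Leaving out 1 array ended the call for WT sham replicates 2 and 4, WT TAC replicate 4, KO sham replicates 1 and 2 and KO TAC replicates 1, 2 and 3, with adjusted p-values of 0.0542 to 0.0673.

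Ano10 came next, lower in KO by 1.49-fold (-0.58 ± 0.13), with an adjusted p of 0.0513 that did not pass the threshold and ran from 0.00656 to 0.306 over 28 alternatives. Uck2 1448604_at differed by 0.38 ± 0.10 (adjusted p = 0.127) and Inmt by 0.47 ± 0.15 (0.205). Emp1 1416529_at differed by 0.29 ± 0.14 (0.459), with opposite signs in sham and after TAC. Akap2 1455870_at differed by 0.25 ± 0.10 (0.381), also with opposite signs. Without the 3 arrays that stood apart these were 0.19 for Emp1 (0.782) and 0.15 for Akap2 (0.77). The other 6 tested probe sets lay between -0.57 and 0.52, with adjusted p-values of 0.295 to 0.902. The median over the 12 was 0.331, beside 0.005 over all probe sets.

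**Figure D4:**
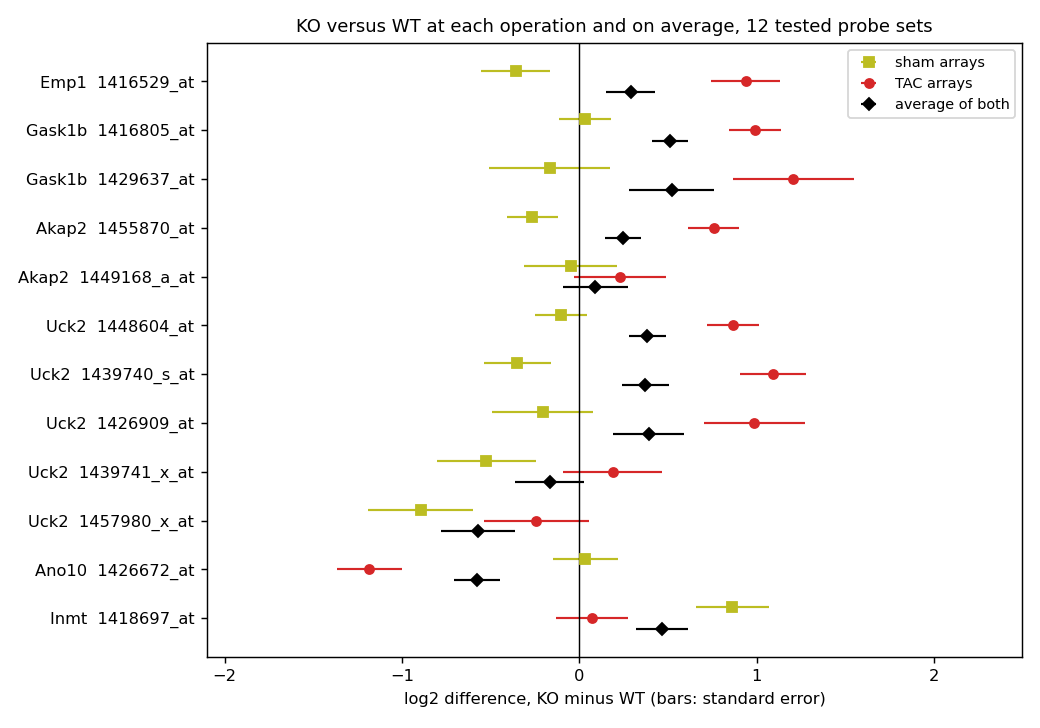
Log2 difference between KO and WT for each of the 12 member probe sets that passed the filter, in sham, after TAC and averaged over both operations, with bars of 1 moderated SE (4 arrays per group). Most members lie near or below 0 in sham and above 0 after TAC, Ano10 lies at 0.03 and then -1.18, and Inmt lies at 0.86 and then 0.07.

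The relatives of the 6 genes were followed in 7 lists: EMP and PMP22 proteins, secretory pathway kinases, anoctamins, small-molecule methyltransferases, A-kinase anchoring proteins, protein kinase A subunits, and genes of pyrimidine synthesis and salvage. Of 60 relatives tested, each on its brightest probe set, limma called 1 between KO TAC and KO sham, 0 between WT TAC and WT sham and 0 in the genotype average, with 14, 6 and 6 of them at an unadjusted p under 0.05. Of all 27022 probe sets, 0.729%, 0% and 1.03% were called in these comparisons, and 3281, 1808 and 2976 had an unadjusted p under 0.05. The median difference of the 60 in KO was -0.01, beside -0.02 over all probe sets.

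The gene called was Upp1, uridine phosphorylase 1, which splits uridine into uracil and ribose phosphate and so acts on the same nucleoside as Uck2. It rose in KO by 0.92 ± 0.18 (adjusted p = 0.0302), from a mean log2 signal of 8.04 to 8.96, and its difference in WT was 0.24 ± 0.18 (0.841). Upp1 did not pass without the 3 arrays that stood apart (adjusted p = 0.23), with the spike-in covariate (0.0924), with no filter on dim probe sets (0.0896) or with only the 8 KO arrays (0.171). It also did not pass when KO sham replicate 2, 3 or 4 or any single KO TAC replicate was left out (0.0521 to 0.0989). The other 18 of 19 tested pyrimidine genes did not pass in any of the 3 comparisons.

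In each of the other lists no gene passed, and the gene with the smallest p is given. Pmp22, a myelin and membrane protein of the Emp1 family, differed by 0.44 ± 0.12 between KO TAC and KO sham (adjusted p = 0.134, 3 relatives tested). Dipk2a, of the secretory kinases, differed by 0.57 ± 0.15 in the same comparison (0.108, 9 tested). The methyltransferase with the smallest p was Gnmt, glycine N-methyltransferase, at -1.86 ± 0.45 in KO (0.0789, 8 tested), the same sign as Inmt. Among 4 anoctamins it was Ano3, with a difference of 1.41 ± 0.48 in WT (0.676) and -0.83 ± 0.48 in KO (0.526). Among 12 other anchoring proteins it was Akap4, at -1.44 ± 0.56 in the genotype average (0.345). Of 5 protein kinase A subunits it was the regulatory subunit Prkar1a, at 0.35 ± 0.12 in KO (0.239).

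**Figure D5:**
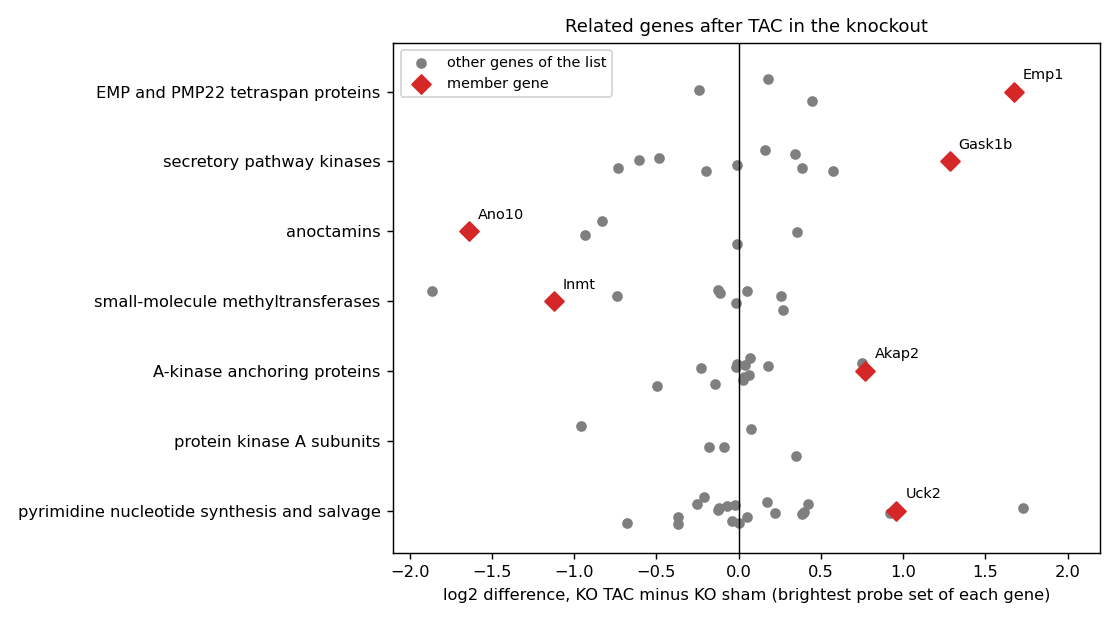
Log2 difference between KO TAC and KO sham for the 6 genes (diamonds) and their 60 tested relatives (points), by list, each gene on its brightest probe set. Emp1, Gask1b, Ano10 and Akap2 lie at the end of their lists. Gnmt lies beyond Inmt at -1.86, and Cda lies beyond Uck2 at 1.73. Upp1, beside Uck2 at 0.92, is the relative that passed the limma test.

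Genes with the profile most like each member over the 16 arrays were named by the smallest root mean square difference of centred log2 signals, among 12246 genes. For Emp1 they were Mfap5 (0.23 log2 units), a microfibril protein of fibroblasts, Rcan1 (0.28), a regulator of the phosphatase calcineurin, and the collagen gene Col1a2 (0.29). For Gask1b they were the collagen gene Col5a2 (0.18), the LIM domain gene Fhl1 (0.19) and Enah (0.21), a regulator of actin. For Uck2 they were Fxyd6 (0.18), Sh3d19 (0.18) and Igfbp7 (0.20), and for Akap2 they were Mtch1 (0.16), the chaperone gene Hsp90aa1 (0.17) and the collagen prolyl hydroxylase gene P4ha1 (0.18). The nearest profiles of Ano10, Egflam (0.33), Scara5 (0.35) and C1qtnf4 (0.36), were farther off, against a spread of 0.70 of Ano10 itself about its mean. For Inmt they were the cell cycle kinase Wee1 (0.23), Mid1ip1 (0.33) and Lgi1 (0.33). These are distances over arrays that share groups, and 2 of the 18 named genes, Mfap5 and Col1a2, also stand in the fibroblast marker lists.

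Markers of other cells were measured beside the members. The summed signal of 10 fibroblast markers was 71192 to 79824 in KO TAC and 47343 to 55829 in KO sham, without overlap, and 50399 to 65696 in WT TAC and 49792 to 54547 in WT sham. Of these 10 genes, 4 rose in KO (Lum, Col1a2, Col3a1 and Mfap5, all of the extracellular matrix), beside 0.488% of all probe sets. The difference in KO was above 0 for 8 of the 10, with Dcn at 0.14, and below 0 for Tcf21 (-0.11) and Dpt (-0.19). In WT 0 of the 10 passed, and 2 had an unadjusted p under 0.05. Of 6 tested markers of activated fibroblasts, Postn, Cilp, Thbs4 and Ltbp2 rose in KO, Postn by 1.97 ± 0.21 (limma adjusted p = 0.000913). The summed signal of all 7 markers on that list, Acta2 and the dim Cthrc1 included, was 16534 to 22997 in KO TAC, 6462 to 13176 in KO sham, 14738 to 21333 in WT TAC and 12154 to 18522 in WT sham. Fibroblast lists were not alone in this. The sum of 7 smooth muscle and pericyte markers, of which 0 were called, was 24867 to 30213 in KO TAC and 22507 to 24559 in KO sham. It was 26966 to 30325 in WT TAC and 24034 to 28733 in WT sham. For 2 red blood cell markers, 1 of them dim, it was 830 to 977 in KO TAC and 673 to 793 in KO sham. In the genotype average, in which Gask1b passed, 1 of 10 fibroblast markers (Col1a2) and 3 of 9 macrophage markers (Cd68, C1qb and C1qc) were higher in KO. Of all probe sets, 0.381% were called higher there. The macrophage sum was 26003 to 36809 in KO and 21069 to 28038 in WT. Of 10 ventricular muscle and 10 endothelial markers, limma called 0 in each of the 3 comparisons. The ventricular sum was nevertheless 757027 to 1056400 in WT TAC and 601831 to 729099 in WT sham, without overlap. In KO TAC it was 559524 to 722802, and in KO sham 661685 to 801262. After TAC, 9 of the 10 ventricular markers were higher in WT (median difference 0.36) and 0 in KO (median difference -0.22). At an unadjusted p under 0.05 there were 3 ventricular and 1 endothelial markers for TAC in KO, 6 and 0 in WT, and 0 and 2 in the genotype average. In RNA of whole tissue, fewer cells of a type and less RNA per cell cannot be told apart, and the part of these cells in the members' values was not tested.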

How the data were processed

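Trizol-extracted left ventricular RNA was biotin-labelled and hybridised to 16 Affymetrix arrays, per the labels' protocols. The authors deposited signal intensity on a linear scale, and the submitters' processing notes name GCOS 1.4. The mean intensity between the 2nd and 98th percentiles was 499.8 to 500.5 on every deposited array, which ties the level of each gene to that of the bright genes together. The signal algorithm, any filter and the detection calls were not stated.

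Values were raised to at least 11.9 (the 10th percentile), then put on the log2 scale without renormalizing. The 64 control probe sets and the 40% of others with the lowest mean (under 6.12) were left out, which left 27022. A limma model (3.58.1, R 4.3.3) with a coefficient for each group used all 16 arrays. A call is a two-sided Benjamini-Hochberg adjusted p under 0.05 over all probe sets tested. SEs are moderated. Of the comparisons, only the genotype average was tested on simulated data. Figures used Python 3.11.15 and matplotlib 3.10.9.

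Of the non-control probe sets, 34945 carried 1 gene symbol, 932 several and 9160 none. Members, gene lists and tests were chosen with earlier results of these data known. Named besides the members were the 3 nearest profiles of each, called relatives or the relative with the smallest p in each list, and Ppara. Cda was named after its value was seen. Markers were chosen from fixed lists, and those named singly were picked after their values were seen. Alternatives were quantile normalization, median centring, other floors and filters, 1 probe set per gene, trend and robust variances, array weights, a spike-in covariate (mean log2 signal of 9 probe sets), the replicate number as a block, only the 8 arrays compared, and arrays left out. Members' values for KO versus WT after TAC without 3 arrays were added after the data were seen. The files name no genome build. Promoter positions are those of the RefSeq table. The labels do not say whether replicate numbers pair the samples, and the main fit did not pair them. The number of arrays limits the precision.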

Additional observations from a re-analysis of the deposited data

Results flagged for a closer look

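Of 56 sets of 4 arrays (14 probe sets in 4 groups), 2 held an array far from the other 3, beyond Dixon's 95% critical value for the gap over the range. Chance gives about 1 in 20 such sets. Both belonged to Uck2. On 1448604_at, KO TAC replicate 3 was high at a log2 signal of 10.97, a signal of 1999.2. On 1439741_x_at, WT sham replicate 3 was low at 8.37, a signal of 331.9.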

How the results depend on the processing

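Over the 12 tested member probe sets, 0 called values changed sign under any alternative. For TAC in KO these values restate the choice of the genes, and several alternatives leave the differences as they were. Some values that were not called did change sign. Among them, Akap2 1449168_a_at kept its sign in KO in 26 of 28 alternatives and Gask1b 1429637_at in WT in 22 of 28. The probe sets called in the genotype average numbered 277, and 183 with median centring, 183 with no filter, 441 with trend and robust variances, 172 without the 3 arrays whose spike-ins were extreme, and 199 to 284 with 1 array left out. Member probe sets called there numbered 1, and 2 with quantile normalization, a floor at the 25th percentile, the 60% filter, 1 probe set per gene, trend and robust variances or array weights, 0 with median centring, no filter, the covariate or without the 3 arrays, and 0 to 2 with 1 array left out. For TAC in KO, 197 were called (132 higher, 65 lower), 118 with median centring (113 higher, 5 lower), 84 with no filter, 427 with the 60% filter, 503 with trend and robust variances, 313 with array weights, 82 with the covariate, and 37 both without the 3 arrays and with only the 8 arrays compared. With 1 array left out it was 89 to 230, with 129 without WT sham replicate 2, 121 without KO sham replicate 2, 108 without replicate 3 and 118 without replicate 4, then 89 without KO TAC replicate 2, 93 without replicate 3 and 126 without replicate 4. Of 8 member probe sets called for TAC in KO, 5 were called with no filter, 4 with the covariate, without the 3 arrays or with only the 8 arrays, and 5 to 8 with 1 array left out. For TAC in WT, 0 were called, 3 with quantile normalization and without the 3 arrays, 1 with median centring and with trend and robust variances, 2 with array weights, and 0 to 5 with 1 array left out (1 without WT sham replicate 2, 5 without WT TAC replicate 3). For the difference between the TAC responses, 0 were called, 1 with no filter, 18 with trend and robust variances, and 0 to 1 with 1 array left out (1 without KO sham replicate 3 or 4). The no-filter and 60% settings test more and fewer probe sets, and those with fewer arrays have fewer samples. For the others the cause was not tested. Median centring moved the median of all probe sets to 0.07 in the genotype average, 0.11 for TAC in KO, -0.12 for TAC in WT and 0.23 for their difference.

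Of pairs of arrays with the same replicate number, 0 of 24 correlated above 0.1, and 6 of 16 arrays were closest to their own number. These values do not decide whether the samples were paired. With the replicate block 120 probe sets were called for TAC in KO, 6 of them members, and 209 in the genotype average.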
